A study of Mus musculus with 24 samples.

Results

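The gene expression of MPP1 multipotent progenitors was set against that of haematopoietic stem cells (HSC) in heterozygous mice, in 6 of the 24 RNA sequencing libraries of a study of Mysm1, whose protein removes ubiquitin from histone H2A. The libraries were chosen by their labels alone: 3 MPP1 libraries and 3 HSC libraries from heterozygotes (Het), numbered 1, 2_3 and 4 in both populations. Both populations were sorted from the marrow of C57BL/6 mice of both sexes, aged 8 to 12 weeks, as lineage-negative, Sca1-positive, cKit-positive, CD150-positive, Flt3-negative and CD48-negative cells. MPP1 were CD34-positive and HSC CD34-negative, so that a single surface marker separates them. Het mice carried 1 floxed allele of Mysm1 (+/fl) and a CreERT2 transgene. They received 8 doses of tamoxifen at 0.15 mg/g over 16 days, which serves to delete exon 3 of that allele. Both populations thus have the same genotype and the same drug. Counts per gene do not show how far exon 3 was deleted in either population. The promoter that drives CreERT2 is not named in the labels. The same gates were also available from tamoxifen-treated knockouts with both alleles floxed (KO, fl/fl CreERT2, 3 libraries per population) and from Mysm1 floxed mice given corn oil (Sham, 2 per population). Marrow of several mice was pooled before sorting, so that each p-value refers to the variation among pools, which may be smaller than that among mice.

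Haematopoietic stem cells of the adult mouse are mostly out of the cell cycle and keep the capacity to rebuild all blood lineages. They give rise to multipotent progenitors, which divide more often and can repopulate a host for a shorter time. CD34 is a sialomucin that is absent from the most quiescent adult mouse stem cells and appears as they enter the progenitor stage. Genes of the S phase, in which DNA is copied, and of the G2 and M phases, in which the copied chromosomes are separated, are expressed in dividing cells. In a bulk library, fewer cells of a type and less RNA per cell cannot be told apart.

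The 3 MPP1 libraries held 33740502, 28334256 and 21378593 counts, and the 3 HSC libraries held 18823971, 27199825 and 34106349 (libraries 1, 2_3 and 4). With every library thinned to 18823971 counts, 19458, 19832 and 20641 genes were detected in MPP1, against 19279, 15881 and 16792 in HSC. The MPP1 libraries thus all stood above the HSC libraries in detected genes, and its part in the results was not tested. Markers of other cell types were present in both populations, and none of their lists had a member that passed the test. The 13 neutrophil markers summed to 244.3 to 590.6 CPM (each count divided by the library total after TMM correction) in MPP1 and 187.2 to 668.8 CPM in HSC, and the 8 late erythroid markers to 36.9 to 147.9 CPM in MPP1 and 19.2 to 291.6 CPM in HSC. T and NK cell markers summed to 50.3 to 53.9 CPM in MPP1 and 31.3 to 68.2 CPM in HSC, macrophage markers to 41.0 to 42.55 CPM in MPP1 and 31.4 to 53.7 CPM in HSC, and stroma and endothelium markers to 158.8 to 191.7 CPM in MPP1 and 131.0 to 215.9 CPM in HSC. B cell markers summed to 53.1 to 57.5 CPM in MPP1 and 25.3 to 75.1 CPM in HSC, and of these 11 genes 0 to 1 were at 0 in an MPP1 library and 2 to 9 in an HSC library. Library 1 of both populations stood apart in Car1, an erythroid carbonic anhydrase chosen after its values were seen, with 88.4 CPM against 18.7 and 6.5 in the other MPP1 libraries and 176.0 CPM against 17.9 and 5.7 in the other HSC libraries.

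The mRNAs of the sort markers followed the gate in part. Cd34 (mm9, chr1:196765015-196787486, plus strand) had 134.3, 135.4 and 127.5 CPM in MPP1 libraries 1, 2_3 and 4, against 75.1, 44.1 and 106.3 CPM in HSC. All MPP1 libraries lay above all HSC libraries, but the HSC libraries were scattered and the log2 change of 0.82 ± 0.41 (SE) did not pass (edgeR quasi-likelihood test with Benjamini-Hochberg adjustment, adjusted p = 0.534). Cd48, which both gates exclude, had 0.535, 2.16 and 0.346 CPM in MPP1 and 1.80, 2.02 and 0.827 CPM in HSC, while MPP2 libraries of the same genotype, sorted as CD48-positive, had 13.8 to 24.1 CPM. Ly6a, which encodes Sca-1, had 6.87, 17.0 and 10.1 CPM in MPP1 and 24.01, 25.01 and 23.97 CPM in HSC. The groups did not overlap for Ly6a, with a log2 change of -1.11 ± 0.39 (adjusted p = 0.349). Kit, Slamf1 (CD150) and Flt3 had log2 changes of -0.30, -0.25 and 0.20 with overlapping libraries (adjusted p of 0.474, 0.804 and 0.987). Slamf1 came to 0.098 without HSC library 2_3, which had the highest value.

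MPP1 differed from HSC by 3 genes that passed the test, all higher in MPP1, among them the histone chaperone gene Asf1b and the kinetochore gene Cenpk. The 3 are 0.014% of the 21456 genes tested, and 0 genes passed as lower in MPP1. Asf1b (mm9, chr8:86479406-86494096, plus strand), which hands newly made histones to replicated DNA, had 17.3, 7.48 and 9.13 CPM in MPP1 libraries 1, 2_3 and 4, against 3.13, 1.70 and 2.21 CPM in HSC. Its lowest MPP1 library was above its highest HSC library, and it rose by 2.28 ± 0.35 on the log2 scale (adjusted p = 0.00681, n = 3 and 3).

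Cenpk (chr13:105019035-105041728, plus strand), a subunit of the constitutive centromere complex, had 21.7, 9.70 and 13.6 CPM in MPP1, against 4.70, 2.22 and 4.55 CPM in HSC. It rose by 1.98 ± 0.32 (adjusted p = 0.0127), again with no overlap between the groups. For both genes library 1 was the highest of the MPP1 libraries and library 2_3 the lowest.

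The 3 calls depended on single libraries. Without HSC library 2_3 0 genes passed (adjusted p of 0.112 for Asf1b and 0.117 for Cenpk), and without MPP1 library 1 0 genes passed (0.163 and 0.209), although their log2 changes stayed between 1.61 and 2.09. The count was 101 without HSC library 1, 15 without HSC library 4, 35 without MPP1 library 2_3 and 3 without MPP1 library 4. Asf1b and Cenpk kept their calls in those 4 fits. At an unadjusted p under 0.05 there were 2123 genes (9.89%), 1420 of them higher and 703 lower in MPP1. DESeq2 passed 212, of which 176 were higher and 36 lower, and limma-trend passed 8 as higher (0.0373%) and 1 as lower (0.00466%). These fits took no account of the library numbers. With the number as a block in the edgeR fit 235 genes passed, 205 higher and 30 lower, but the labels do not say what a number marks. Unless another setting is named, a gene said here to pass or not refers to the edgeR fit without the block.

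**Figure D1:**
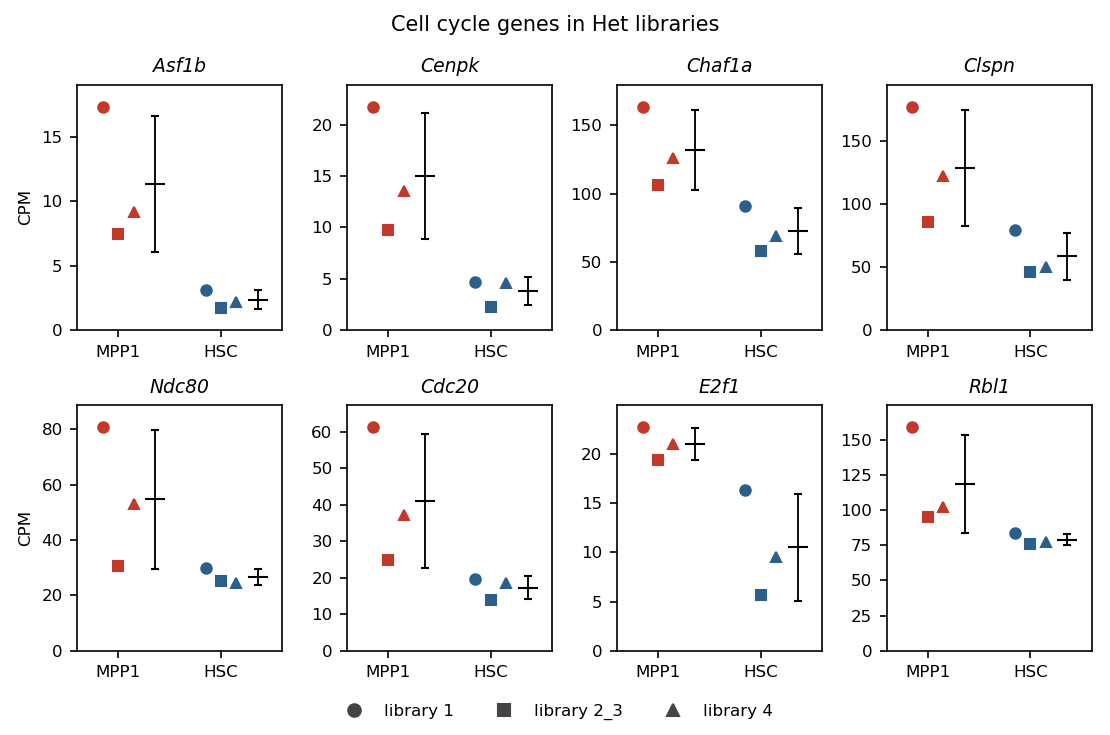
CPM (linear axis from 0) of 8 cell cycle genes in the 3 MPP1 and 3 HSC libraries of Het mice, with the marker shape giving the library number and the bar beside each group the mean ± SD. All MPP1 libraries lie above all HSC libraries in each panel, and MPP1 library 1 is the highest point throughout.

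Genes of the cell division cycle had log2 changes above 0 throughout, although 0 members of these lists passed the test. Of 42 G2 and M phase genes all 42 had a log2 change above 0, with a median of 1.37, beside 53.9% of all genes above 0 and a median of 0.05 over all genes. Of 46 S phase genes all 46 were above 0, with a median of 0.71. MPP1 and HSC libraries did not overlap for 15 of the 42 and for 24 of the 46, all with MPP1 above, beside 7.41% of all genes tested. At an unadjusted p under 0.05, 40 of the 42 and 34 of the 46 were higher in MPP1, beside 6.62% of all genes. By DESeq2 17 of the 42 and 8 of the 46 passed as higher, beside 0.82% of all genes.

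Among the S phase genes the members with the smallest adjusted p were Chaf1a and Clspn. Chaf1a (chr17:56179827-56206973, plus strand), the large subunit of the chromatin assembly factor that loads histones behind the replication fork, had 163.6, 106.0 and 126.4 CPM in MPP1 and 90.9, 58.0 and 68.65 CPM in HSC. The groups did not overlap, and the log2 change was 0.87 ± 0.18 (adjusted p = 0.102). Clspn (chr4:126234179-126271147, plus strand) encodes claspin, which couples stalled forks to the checkpoint kinase Chk1. It had 177.3, 86.2 and 122.7 CPM in MPP1 and 79.8, 45.7 and 49.8 CPM in HSC, a log2 change of 1.14 ± 0.23 (adjusted p = 0.102), also with no overlap. The replicative helicase subunit Mcm3 was at 443.1 ± 85.3 CPM in MPP1 and 272.9 ± 36.03 CPM in HSC (SD, n = 3 each), and the maintenance methylation factor Uhrf1 at 183.1 ± 63.7 CPM in MPP1 and 80.4 ± 34.9 CPM in HSC. In both genes every MPP1 library was above every HSC library.

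Among the G2 and M phase genes the corresponding members were Ndc80 and Cdc20. Ndc80 (chr17:71845440-71876197, minus strand), which attaches kinetochores to microtubules, had 80.7, 30.6 and 52.9 CPM in MPP1 and 30.0, 25.2 and 24.5 CPM in HSC. MPP1 library 2_3 was just above HSC library 1, and the log2 change was 1.04 ± 0.25 (adjusted p = 0.196). Cdc20 (chr4:118105506-118109957, minus strand), an activator of the ubiquitin ligase that starts anaphase, had 61.2, 24.9 and 37.1 CPM in MPP1 and 19.6, 13.8 and 18.4 CPM in HSC. Its groups did not overlap either, with a log2 change of 1.25 ± 0.31 (adjusted p = 0.198). Larger but more scattered differences were seen for mitotic motor genes. The kinetochore motor Cenpe was at 164.2 ± 97.55 CPM in MPP1 and 46.6 ± 17.4 CPM in HSC, and the spindle motor Kif11 at 216.9 ± 135.6 CPM in MPP1 and 59.3 ± 39.6 CPM in HSC. For the proliferation marker Mki67 the groups overlapped, with 2005, 515.4 and 747.9 CPM in MPP1 and 680.5, 207.4 and 286.2 CPM in HSC.

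The populations overlapped when these lists were averaged. The mean log2 CPM of the G2 and M phase list was 6.60, 4.99 and 5.61 in MPP1 libraries 1, 2_3 and 4, and 5.16, 4.13 and 4.13 in HSC. Library 1 was the highest in both populations, and HSC library 1 lay above MPP1 library 2_3. Without MPP1 library 1 the median log2 change of the G2 and M phase list was 0.71, and it was between 1.16 and 1.76 without any single other library. The S phase median was 0.49 without MPP1 library 1 and otherwise 0.55 to 0.92. With both libraries numbered 1 left out, a setting chosen after the values were seen, the medians were 1.19 and 0.68.

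**Figure D2:**
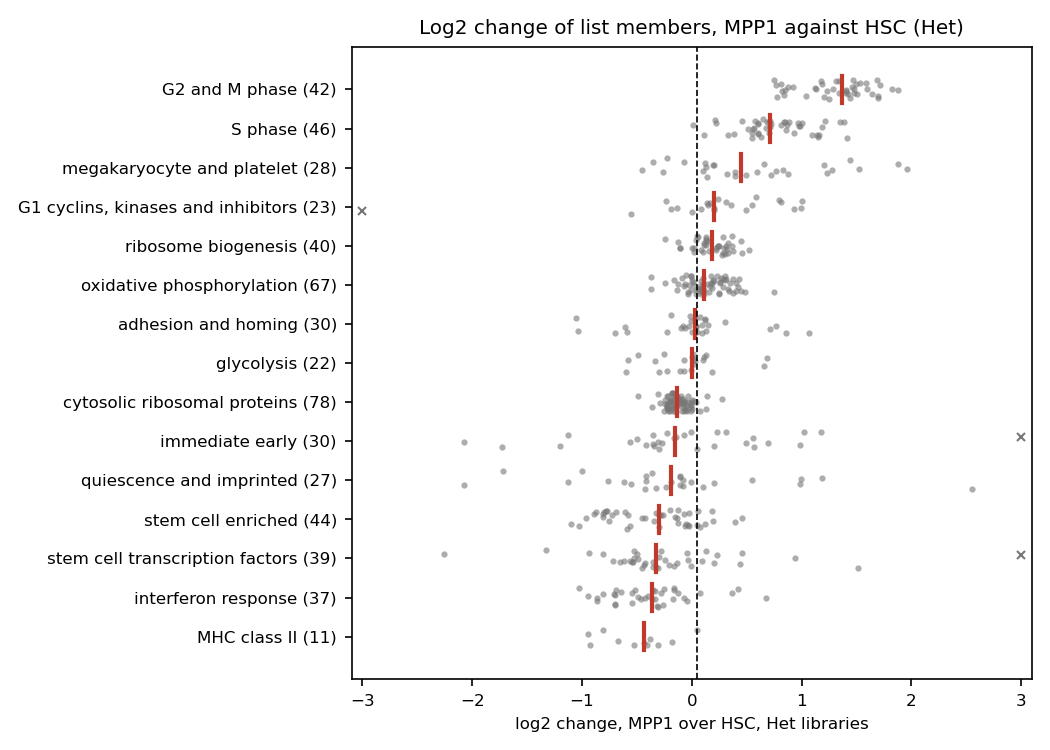
Log2 change of MPP1 over HSC for each tested member of the gene lists, with the number of members in brackets, the list median as a red bar and the median of all genes as a dashed line. Members beyond 3 in either direction are drawn as crosses at the edge, and all S phase and all G2 and M phase members lie to the right of 0.

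Promoter sequences of the genes above are shown because G2 and M phase genes are known to share promoter elements that differ from those of S phase genes. G2 and M phase genes are known targets of the DREAM and MuvB complexes, which bind the cell cycle homology region (CHR, TTTGAA), often downstream of CCAAT boxes bound by NF-Y, and S phase genes of E2F factors. Of the genes that passed, Asf1b and Cenpk had an entry among the RefSeq promoters (GRCm38.p6, 250 bases before to 50 after the first listed start). The list members were added after their values were seen. Capitals mark matches, on either strand, to TTTGAA, to CCAAT or to an E2F site (TTTCCCGC, TTTGGCGC, TTTCGCGC or TTTGCCGC), and no match says only that these letters are not in the window.
Asf1b (chr8:83955444-83955743, plus strand): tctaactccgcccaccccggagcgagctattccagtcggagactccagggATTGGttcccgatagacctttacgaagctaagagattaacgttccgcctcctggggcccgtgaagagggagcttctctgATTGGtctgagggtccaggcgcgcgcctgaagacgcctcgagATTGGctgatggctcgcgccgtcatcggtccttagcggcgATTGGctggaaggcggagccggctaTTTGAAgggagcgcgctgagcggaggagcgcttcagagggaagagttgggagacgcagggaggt
Cenpk (chr13:104228361-104228660, plus strand): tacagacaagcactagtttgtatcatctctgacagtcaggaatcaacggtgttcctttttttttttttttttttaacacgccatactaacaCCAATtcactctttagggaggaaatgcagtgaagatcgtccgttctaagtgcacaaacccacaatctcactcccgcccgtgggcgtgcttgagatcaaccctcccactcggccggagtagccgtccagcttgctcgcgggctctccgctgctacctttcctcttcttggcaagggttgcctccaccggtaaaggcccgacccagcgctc
Chaf1a (chr17:56040166-56040465, plus strand): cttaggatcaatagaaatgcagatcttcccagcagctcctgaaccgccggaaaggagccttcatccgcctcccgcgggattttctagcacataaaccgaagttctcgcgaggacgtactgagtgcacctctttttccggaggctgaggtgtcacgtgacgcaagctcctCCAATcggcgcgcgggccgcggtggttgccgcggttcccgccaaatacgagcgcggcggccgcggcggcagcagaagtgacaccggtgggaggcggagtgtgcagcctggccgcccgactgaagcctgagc
Clspn (chr4:126556730-126557029, plus strand): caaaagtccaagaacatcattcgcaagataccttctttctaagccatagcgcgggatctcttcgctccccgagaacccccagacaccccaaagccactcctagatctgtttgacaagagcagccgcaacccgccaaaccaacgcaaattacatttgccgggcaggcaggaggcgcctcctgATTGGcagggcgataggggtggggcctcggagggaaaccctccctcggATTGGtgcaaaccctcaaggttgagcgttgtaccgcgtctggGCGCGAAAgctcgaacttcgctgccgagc
Ndc80 (chr17:71526808-71527107, minus strand): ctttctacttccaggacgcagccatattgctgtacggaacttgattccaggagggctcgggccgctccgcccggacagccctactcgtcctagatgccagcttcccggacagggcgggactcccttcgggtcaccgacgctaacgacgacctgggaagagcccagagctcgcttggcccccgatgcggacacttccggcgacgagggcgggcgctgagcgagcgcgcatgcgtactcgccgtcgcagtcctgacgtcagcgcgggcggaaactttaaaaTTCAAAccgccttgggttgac
Cdc20 (chr4:118437294-118437593, minus strand): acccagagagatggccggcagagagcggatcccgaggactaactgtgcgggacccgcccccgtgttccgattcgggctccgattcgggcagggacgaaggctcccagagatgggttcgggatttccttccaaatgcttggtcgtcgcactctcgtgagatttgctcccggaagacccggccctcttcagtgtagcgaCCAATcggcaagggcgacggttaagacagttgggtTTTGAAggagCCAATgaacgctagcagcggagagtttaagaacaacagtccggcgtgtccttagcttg

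In these windows Asf1b had 1 TTTGAA match and 4 CCAAT matches, Cdc20 1 and 2, and Ndc80 1 TTTGAA match, while Cenpk and Chaf1a had 1 CCAAT match each. Clspn had 2 CCAAT matches and 1 E2F match. Over the lists, 35 of the 42 G2 and M phase genes and 36 of the 46 S phase genes had a promoter entry. TTTGAA was found in 27 of these 35 (77.1%) and in 4 of these 36 (11.1%), beside 18.1% of all 27025 promoters of the same length. CCAAT was found in 26 (74.3%) and 20 (55.6%), beside 37.9% of all promoters, and the E2F letters in 1 (2.86%) and 13 (36.1%), beside 2.32%. TTTGAA was thus the more frequent in promoters of the mitotic genes and the E2F letters in those of the replication genes. These shares depend on the choice of the lists and use no expression value, so they do not bear on MPP1 against HSC.

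Regulators of the G1 phase did not all have the same sign. Of 23 cyclins, kinases and inhibitors of G1, 17 had a log2 change above 0 and 6 below, with a median of 0.20, and 0 passed. That median was 0.11 without MPP1 library 1, 0.35 without HSC library 1 and 0.32 without MPP1 library 2_3. The transcription factor E2f1, which switches on S phase genes, had 22.7, 19.4 and 21.0 CPM in MPP1 and 16.4, 5.67 and 9.49 CPM in HSC. The MPP1 libraries were close together and all above the HSC libraries, with a log2 change of 1.01 ± 0.28 (adjusted p = 0.231). The pocket protein gene Rbl1 (p107) was at 118.8 ± 34.96 CPM in MPP1 and 79.1 ± 3.91 CPM in HSC (0.59 ± 0.20, adjusted p = 0.337). The cyclin-dependent kinase inhibitor Cdkn1c (p57), which holds stem cells out of the cycle, had 7.82, 31.6 and 25.4 CPM in MPP1 and 15.1, 37.5 and 42.3 CPM in HSC, so that the groups overlapped and library 1 was the lowest in each.

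Genes enriched in long-term stem cells mostly had log2 changes below 0, again with 0 members that passed. Of 44 such genes 36 had a log2 change below 0 and 8 above, with a median of -0.30, beside 46.1% of all genes below 0. MPP1 libraries all lay below HSC libraries for 6 of the 44, beside 3.82% of all genes, and 11 of the 44 were lower at an unadjusted p under 0.05, beside 3.28%. DESeq2 passed Mllt3 and Cish as lower, beside 0.168% of all genes. Mllt3 (chr4:87415829-87679268, minus strand), a reader of acylated histones, had 90.3, 158.2 and 150.4 CPM in MPP1 and 153.8, 311.1 and 263.5 CPM in HSC. The groups met at the edge, since HSC library 1 was below MPP1 library 2_3, and the log2 change was -0.87 ± 0.22 (edgeR adjusted p = 0.198). Cish, an inhibitor of cytokine receptor signalling, had 6.04, 10.2 and 11.6 CPM in MPP1 and 17.3, 19.05 and 23.2 CPM in HSC, with no overlap (-1.10 ± 0.31, edgeR adjusted p = 0.244). Procr, the protein C receptor that marks long-term stem cells, was at 48.9 ± 23.3 CPM in MPP1 and 90.8 ± 24.2 CPM in HSC, with overlapping libraries (adjusted p = 0.515).

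Transcription factors of stem cell identity had a median of -0.32, with 30 of 39 below 0, beside 46.1% of all genes. All MPP1 libraries lay below all HSC libraries for 8 of the 39, beside 3.82% of all genes. Mecom (chr3:29850221-30446930, minus strand), the zinc finger factor Evi1 that stem cells need for self-renewal, had 107.6, 218.6 and 221.0 CPM in MPP1 and 238.7, 414.0 and 303.7 CPM in HSC. The groups did not overlap, and the log2 change was -0.81 ± 0.24 (adjusted p = 0.294). Prdm16 (chr4:153690234-154010982, minus strand), its relative with a similar role, had 41.7, 68.0 and 56.1 CPM in MPP1 and 70.4, 85.8 and 88.5 CPM in HSC (-0.56 ± 0.23, adjusted p = 0.429). Here too every MPP1 library was below every HSC library, and the lowest of each population was library 1. Hlf, a leucine zipper factor of stem cells, had overlapping groups at 179.9 ± 51.5 CPM in MPP1 and 241.7 ± 48.7 CPM in HSC. Without MPP1 library 1 the median of the transcription factors was -0.19, without HSC library 4 it was -0.22, and without the other libraries in turn it ran from -0.44 to -0.25.

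Among 27 genes of quiescence and imprinted genes 20 were below 0, with a median of -0.19. MPP1 lay below HSC without overlap for 4 of the 27, beside 3.82% of all genes, and above for 2, beside 7.41%. The median was -0.28 without HSC library 4 or without MPP1 library 2_3. Txnip (chr3:96361880-96365806, plus strand), a thioredoxin inhibitor that restrains glucose uptake, had 495.9, 652.6 and 627.8 CPM in MPP1 and 806.8, 949.7 and 965.1 CPM in HSC. Its groups were well apart, with a log2 change of -0.62 ± 0.16 (edgeR adjusted p = 0.198, DESeq2 adjusted p = 0.0246). Foxo3, a transcription factor that protects resting stem cells from oxidative damage, was at 75.8 ± 12.9 CPM in MPP1 and 101.3 ± 14.5 CPM in HSC, with overlapping libraries (-0.42 ± 0.14, adjusted p = 0.337).

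**Figure D3:**
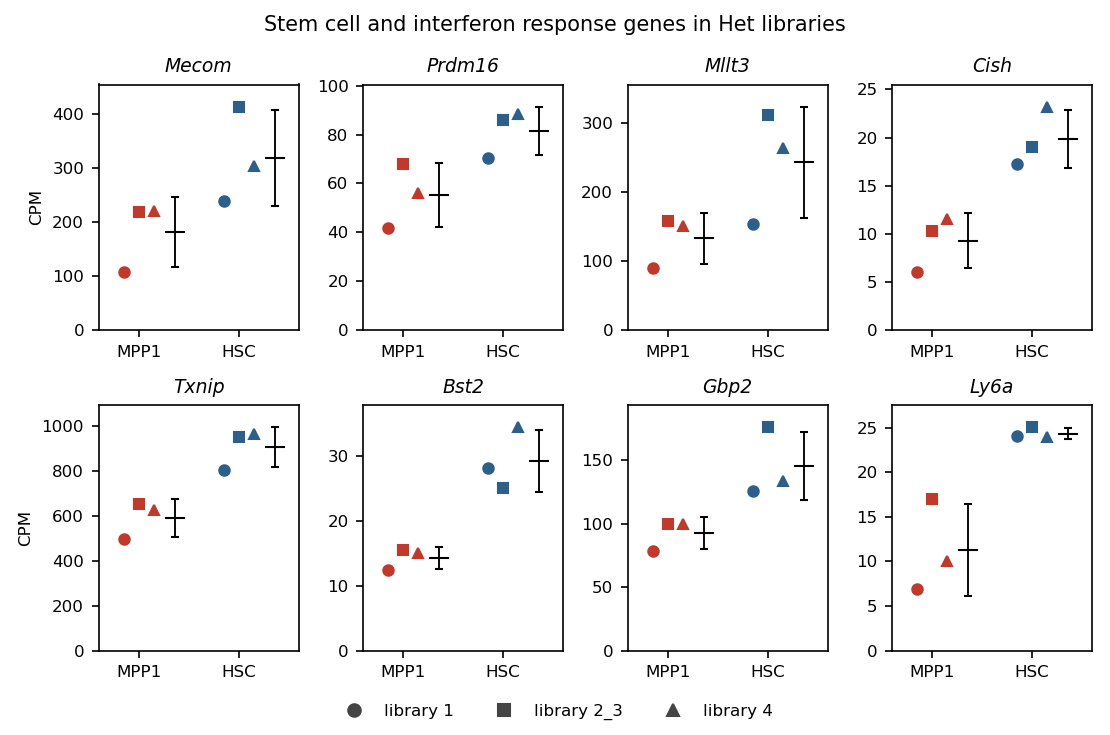
CPM (linear axis from 0) of 8 genes in the 3 MPP1 and 3 HSC libraries of Het mice, with the marker shape giving the library number and the bar beside each group the mean ± SD. MPP1 lies below HSC without overlap in each panel except that of Mllt3, where HSC library 1 at 153.8 CPM is below MPP1 library 2_3 at 158.2 CPM.

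Interferon response genes mostly had log2 changes below 0, and 0 passed. Of 37 genes 33 were below 0 and 4 above, with a median of -0.36, and MPP1 lay below HSC without overlap for 9, beside 3.82% of all genes, and above for 1, beside 7.41%. At an unadjusted p under 0.05, 16 of the 37 were lower, beside 3.28% of all genes. Bst2 (chr8:74058163-74061336, minus strand), tetherin, which holds budding viruses at the cell surface, had 12.5, 15.6 and 15.02 CPM in MPP1 and 28.2, 25.1 and 34.5 CPM in HSC. Every HSC library was well above every MPP1 library, and the log2 change of -1.03 ± 0.20 missed the threshold (edgeR adjusted p = 0.0659). Bst2 passed in 10 of 16 alternatives, among them DESeq2 (adjusted p = 9.31e-06), limma-trend (0.0437) and RLE scaling (0.0348), and its adjusted p over the 16 reached 0.905. Of the cell cycle genes above that also missed the threshold, Clspn passed in 9 of the 16, Chaf1a in 7, Cdc20 in 5 and Ndc80 in 4. The adjusted p of each of these also reached 0.905.

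Gbp2, a guanylate-binding protein of the defence against intracellular microbes, had 78.1, 99.90 and 100.01 CPM in MPP1 and 125.9, 175.7 and 133.4 CPM in HSC, with no overlap (-0.65 ± 0.17, adjusted p = 0.198). Irf7, the transcription factor that amplifies interferon production, had 9.40, 17.2 and 18.7 CPM in MPP1 and 27.7, 26.0 and 28.4 CPM in HSC. Its groups were also separate, with a log2 change of -0.86 ± 0.29 (adjusted p = 0.337). The mean log2 CPM of the whole list was 4.78, 5.27 and 5.17 in MPP1 and 5.37, 5.47 and 5.49 in HSC, so that in this list the populations did not overlap, although MPP1 library 2_3 came close to HSC library 1. The median log2 change ran from -0.49 to -0.28 with each library left out in turn.

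Of 11 MHC class II genes, which present peptides to helper T cells, 10 were below 0, with a median of -0.43. The antigen chain H2-Aa had 12.9, 30.1 and 19.8 CPM in MPP1 and 28.4, 43.8 and 37.3 CPM in HSC, and H2-Eb1 14.5, 26.1 and 17.4 CPM in MPP1 and 24.96, 54.5 and 31.9 CPM in HSC. Both had 1 MPP1 library, 2_3, above the lowest HSC library (adjusted p of 0.347 for H2-Aa and 0.346 for H2-Eb1). The list median was -0.72 without MPP1 library 2_3 and -0.70 without HSC library 4.

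Of the genes in the megakaryocyte, erythroid, granulocyte and lymphoid lists 0 passed. In the megakaryocyte and platelet list 23 of 28 genes were above 0, with a median of 0.45, but MPP1 libraries all lay above HSC libraries for 1 gene of the 28, the granule trafficking GTPase Rab27b, beside 7.41% of all genes. Itga2b (CD41), the platelet fibrinogen receptor chain, had 654.5, 211.5 and 361.3 CPM in MPP1 and 206.9, 85.4 and 213.8 CPM in HSC (1.28 ± 0.47, adjusted p = 0.398). MPP1 library 1 was far above the others, and MPP1 library 2_3 was below HSC library 4. Gp5, a platelet glycoprotein, was at 18.2 ± 9.14 CPM in MPP1 and 10.2 ± 3.75 CPM in HSC, and the platelet chemokine Pf4 at 200.6 ± 149.4 CPM in MPP1 and 69.9 ± 43.6 CPM in HSC, both with overlapping libraries. The list median was 0.19 without MPP1 library 1 and otherwise 0.37 to 0.66.

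In the erythroid list 10 of 21 tested genes were above 0 and 11 below, and the median of -0.02 turned to 0.80 without HSC library 1 and to 0.16 without MPP1 library 2_3 or without MPP1 library 4. It was -0.57 without MPP1 library 1, -0.30 without HSC library 4 and -0.18 without HSC library 2_3. Gata1, the master factor of red cells and platelets, had 56.0, 18.5 and 23.6 CPM in MPP1 and 30.8, 6.85 and 18.2 CPM in HSC, with overlapping groups (adjusted p = 0.559). Slc4a1, the anion exchanger of red cells, had 0.684, 0.999 and 0.736 CPM in MPP1 and 2.04, 2.15 and 2.23 CPM in HSC. Of 28 granulocyte and monocyte genes 17 were above 0, and their median of 0.20 turned to -0.02 without MPP1 library 1 and was 0.08 without HSC library 1. Of 27 lymphoid genes 15 were above 0, and their median of 0.14 turned to -0.008 without HSC library 4, was 0.008 without MPP1 library 2_3, 0.09 without MPP1 library 1 or 4, and 0.31 without HSC library 1. The members with the smallest adjusted p were expressed at low levels: Cst7, a protease inhibitor of leukocytes, had 3.45, 1.13 and 1.73 CPM in MPP1 and 0.569, 0 and 0.083 CPM in HSC, and Cd7 had 0.416, 0.838 and 0 CPM in MPP1 and 0 in all HSC libraries. Ly6c2, a myeloid surface antigen, had 3.60, 2.16 and 0.693 CPM in MPP1 and 0.475, 0 and 0.221 CPM in HSC, with no overlap. The lymphoid factor Bcl11a had 175.5, 184.1 and 177.5 CPM in MPP1 and 193.8, 213.4 and 225.9 CPM in HSC, a small difference without overlap (-0.24 ± 0.14, adjusted p = 0.586). The leukocyte integrin chain Itgal, of the adhesion and homing list, had 7.88, 7.57 and 4.98 CPM in MPP1 and 4.51, 3.49 and 1.82 CPM in HSC (1.07 ± 0.33, adjusted p = 0.299), with no overlap. The junctional adhesion molecule Jam3 was at 9.13 ± 3.39 CPM in MPP1 and 18.99 ± 9.46 CPM in HSC, with overlapping groups (-1.06 ± 0.45, adjusted p = 0.440). That list as a whole was split, with 17 of 30 above 0 and a median of 0.03 that was below 0 without HSC library 1, HSC library 2_3 or MPP1 library 1 (lowest -0.05).

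Among genes of growth and energy metabolism 0 passed. Of 40 ribosome biogenesis genes 36 were above 0, beside 53.9% of all genes, with a median of 0.19, and 5 of the 40 had MPP1 above HSC without overlap, beside 7.41% of all genes. That median was 0.11 without MPP1 library 1, 0.12 without HSC library 2_3 and 0.30 without HSC library 4. The nucleolar factor Wdr12, which matures the large ribosomal subunit, had 109.6, 106.9 and 97.7 CPM in MPP1 and 81.3, 66.8 and 80.0 CPM in HSC (0.46 ± 0.17, adjusted p = 0.357). Nop10, a core protein of the RNAs that guide pseudouridylation, had 47.0, 48.7 and 50.0 CPM in MPP1 and 36.2, 24.2 and 40.8 CPM in HSC. In both genes the MPP1 libraries were close together and above all HSC libraries. Of 67 nuclear-encoded oxidative phosphorylation genes 51 were above 0, and their median of 0.11 was 0.04 without MPP1 library 1, and 0.20 without HSC library 4 or without MPP1 library 2_3. The cytochrome oxidase subunit gene Cox8a was at 83.1 ± 8.59 CPM in MPP1 and 65.6 ± 5.38 CPM in HSC. Another subunit, Cox5a, had overlapping groups at 22.0 ± 6.68 CPM in MPP1 and 13.1 ± 6.84 CPM in HSC. Of 22 glycolysis genes 10 were above 0, with a median of -0.002 that was 0.09 without HSC library 4 and ran from -0.10 to -0.02 without the others in turn. The aldolase gene Aldoa was at 236.0 ± 13.6 CPM in MPP1 and 296.7 ± 44.3 CPM in HSC, and the glucose transporter Slc2a1 had 13.4, 21.3 and 24.1 CPM in MPP1 and 27.8, 28.6 and 26.3 CPM in HSC, with MPP1 below throughout. The mRNAs of the cytosolic ribosomal proteins ran the other way, with 70 of 78 below 0, beside 46.1% of all genes, and a median of -0.14. MPP1 lay below HSC without overlap for 2 of the 78, beside 3.82% of all genes. The mean log2 CPM of the list overlapped, at 9.145 to 9.34 in MPP1 and 9.134 to 9.538 in HSC. Rpl37, a protein of the large subunit, had 576.5, 774.6 and 625.8 CPM in MPP1 and 810.1, 1032 and 942.7 CPM in HSC. It had the smallest adjusted p of that list, and its groups did not overlap (-0.49 ± 0.17, adjusted p = 0.337). The ribosomal protein median was -0.06 without HSC library 4 and -0.25 without HSC library 1.

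Of 30 immediate early genes, which respond within minutes to stimuli and to cell isolation, 18 were below 0, with a median of -0.15. The median turned to 0.36 without HSC library 1, and was -0.28 without HSC library 2_3 and -0.26 without MPP1 library 2_3. The antiproliferative gene Btg2 had 24.9, 9.67 and 10.6 CPM in MPP1 and 7.403, 6.33 and 9.13 CPM in HSC, and Ier5 22.4, 20.1 and 21.4 CPM in MPP1 and 23.6, 32.9 and 33.6 CPM in HSC. Their groups did not overlap and differed in opposite directions (adjusted p of 0.349 for Btg2 and 0.357 for Ier5).

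The same gates in KO and Sham gave values in libraries that the Het comparison does not use. Sham mice were given corn oil and not the tamoxifen of Het and KO mice, so that Sham differs from Het by treatment. In Sham, 1 gene passed (0.00466% of genes tested, 995 or 4.64% at an unadjusted p under 0.05, 104 by DESeq2). It was Clspn, with 107.9 and 123.7 CPM in MPP1 and 33.3 and 33.95 CPM in HSC, a rise of 1.78 ± 0.28 (edgeR adjusted p = 0.0416). In KO, 0 genes passed by edgeR, with 520 (2.42%) at an unadjusted p under 0.05 and 11 by DESeq2. Of the genes called in Het, Asf1b had log2 changes of 0.47 in KO and 1.31 in Sham, and Cenpk 0.36 in KO and 0.28 in Sham (edgeR adjusted p of 1 in KO for both, and of 0.527 for Asf1b and 1 for Cenpk in Sham). In KO HSC their levels were higher than in Het HSC: Asf1b had 14.6, 5.92 and 6.97 CPM there and Cenpk 21.6, 12.4 and 14.7 CPM, in each library above every Het HSC library. Sham HSC libraries were also above every Het HSC library, with 4.28 and 4.13 CPM for Asf1b and 5.19 and 10.9 CPM for Cenpk.

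All 42 G2 and M phase genes were above 0 in KO and in Sham as well, with medians of 0.55 and 1.67, but no member had MPP1 libraries above HSC libraries without overlap in KO, and all 42 did in Sham, beside 2.80% and 21.7% of all genes. The S phase medians were 0.38 in KO and 0.83 in Sham, with 44 of 46 above 0 in each. The stem cell enriched genes had medians of -0.25 in KO and -0.30 in Sham, with 40 and 36 of 44 below 0. MPP1 libraries all lay below HSC libraries for 5 of the 44 in KO and 21 in Sham, beside 2.71% and 12.4% of all genes. Interferon response genes had medians of -0.21 in KO (33 of 37 below 0) and -0.09 in Sham (23 of 37), and Bst2 itself had log2 changes of -0.19 and 0.01. The megakaryocyte median was -0.03 in KO and 0.43 in Sham, and that of ribosomal proteins 0.05 in KO and -0.25 in Sham. The S phase, G2 and M phase and stem cell enriched lists thus had medians of the same sign in Het, KO and Sham. They were not alone, as the interferon response medians above also kept their sign. Medians in Het, KO and Sham were -0.43, -0.33 and -0.39 for MHC class II and 0.19, 0.17 and 0.19 for ribosome biogenesis. They were 0.11, 0.19 and 0.15 for oxidative phosphorylation and 0.20, 0.17 and 0.17 for G1 regulators. Those of quiescence and imprinted genes were -0.19, -0.13 and -0.10. Stem cell transcription factors had a median of -0.03 in KO (23 of 39 below 0), near that of all genes, and -0.28 in Sham. The megakaryocyte and ribosomal protein medians of KO, also near 0, had the opposite sign to those of Het and Sham. KO also had the opposite sign for granulocyte and monocyte genes (0.20 in Het, -0.30 in KO, 0.27 in Sham) and lymphoid genes (0.14, -0.20, 0.02). So it had for adhesion and homing (0.03, -0.13, 0.05), B cell markers (0.14, -0.68, 0.01) and macrophage markers (0.03, -0.20, 0.12). Several of these Het and Sham medians were themselves near 0. The median of all genes was 0.05 in Het, -0.05 in KO and 0.06 in Sham. In Sham all 13 neutrophil markers were above 0, beside 55.6% of all genes, with a median of 1.74. MPP1 libraries lay above HSC libraries without overlap for 0 of these 13, beside 21.7% of all genes. The markers summed to 1293 and 196.8 CPM in Sham MPP1 libraries 2_3 and 4, and to 375.2 and 166.8 CPM in Sham HSC.

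Whether the difference between MPP1 and HSC itself differed by genotype was tested as Het less KO. By edgeR 0 genes passed, with 1044 (4.87%) at an unadjusted p under 0.05, 23 by DESeq2 and 0 by limma-trend. The smallest adjusted p were 0.988, among others for Asf1b with an interaction of 1.81 ± 0.47, Cenpk with 1.62 ± 0.44 and Rabggta, a subunit of the Rab geranylgeranyl transferase. Rabggta had 25.8, 32.1 and 24.4 CPM in MPP1 and 15.7, 13.4 and 15.9 CPM in HSC of Het mice, and 16.0, 16.65 and 21.5 CPM in MPP1 and 22.4, 27.5 and 21.7 CPM in HSC of KO mice. It was higher in MPP1 in Het and lower in KO, an interaction of 1.28 ± 0.32 that did not pass. Prkrip1 had an interaction of 1.17 ± 0.29 and log2 changes of 0.92 in Het and -0.24 in KO, and Zcwpw1 log2 changes of 1.33 in Het and -0.27 in KO.

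**Figure D4:**
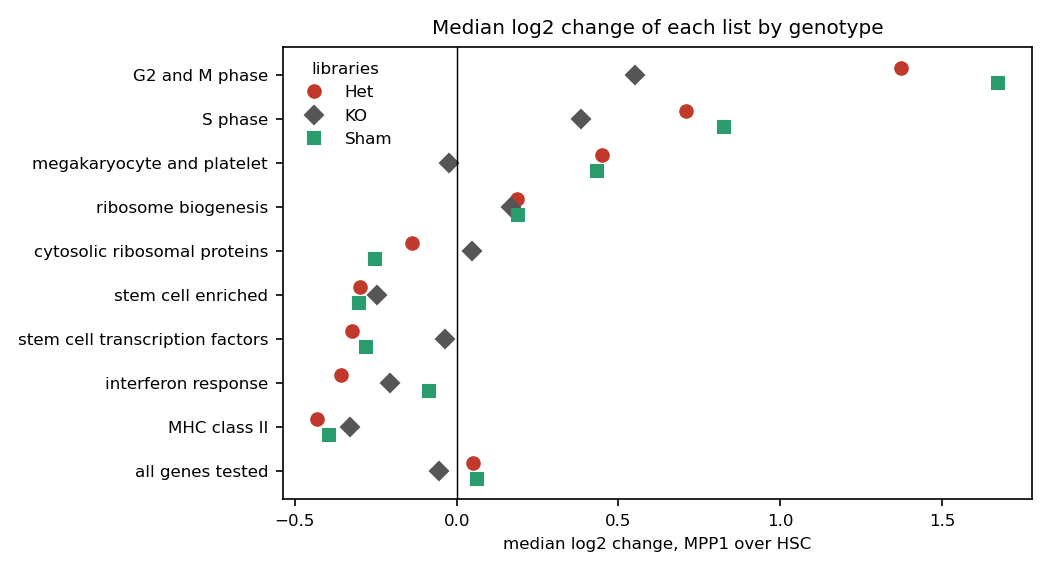
Median log2 change of MPP1 over HSC for 9 gene lists and all genes, from Het (circles), KO (diamonds) and Sham (squares) libraries. The G2 and M phase medians are 1.37, 0.55 and 1.67, the stem cell enriched medians lie between -0.30 and -0.25, and those of all genes are near 0.

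The single genes also ran in part the same way. Of the 1589 genes with all Het MPP1 libraries above all Het HSC libraries, 1072 (67.5%) were above 0 in Sham and 826 (52.0%) in KO, beside 55.6% and 43.4% of all genes. Of the 820 genes with all Het MPP1 libraries below, 522 (63.7%) were below 0 in Sham and 539 (65.7%) in KO, beside 44.4% and 55.7% of all genes.

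MPP2 progenitors of the same genotype, which are CD34-positive and CD48-positive, were sequenced in 3 libraries. The mean log2 CPM of the G2 and M phase list was 6.99 to 7.27 in MPP2, 4.99 to 6.60 in MPP1 and 4.13 to 5.16 in HSC. That of the stem cell enriched genes was 3.87 to 4.15 in MPP2, 5.25 to 5.75 in MPP1 and 5.67 to 6.08 in HSC. MPP1 overlapped HSC in both lists and MPP2 in neither. Cenpk had 26.9, 31.0 and 35.7 CPM in MPP2 libraries 1, 2_3 and 4, and Asf1b 26.8, 20.5 and 18.2 CPM, above every MPP1 library for both.

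**Figure D5:**
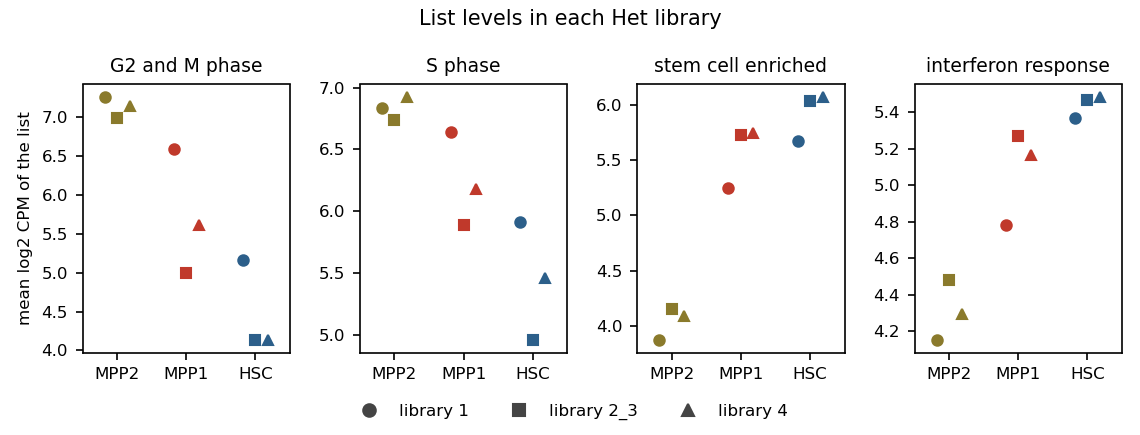
Mean log2 CPM of 4 gene lists in each Het library of MPP2, MPP1 and HSC, with the marker shape giving the library number. In the G2 and M phase panel MPP1 library 1 at 6.60 is nearer to MPP2 than MPP1 library 2_3 at 4.99, and in the interferon response panel the 3 populations do not overlap.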

How the data were processed

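RNA of 6 pooled libraries of the comparison, and of the 18 others in the same fit, was sequenced as stranded rRNA-depleted paired-end reads of 50 bp, per the labels' protocols. The deposited raw counts per gene were made by the authors on build mm9, and the submitters' processing notes name featureCounts, TopHat2 2.0.9 with Bowtie 1.0.0, Trimmomatic 0.33 and FastQC, beside R 3.1.2 and edgeR, with no role or annotation. A deposited table with a signal normalized by the authors, for 12186 genes, served 1 alternative, and 0 columns of values were left unused.

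Counts were joined by gene symbol and analysed in R 4.3.3 with edgeR 4.0.16. Low genes were removed by filterByExpr over the groups (least count 10), which kept 21456 of 23364 genes, and libraries were scaled by TMM. All 9 groups were fitted together by a robust quasi-likelihood model (15 residual degrees of freedom). Contrasts were tested two-sided with edgeR's quasi-likelihood F test at a threshold of 0.05 on p-values adjusted after Benjamini and Hochberg across the 21456 genes. Standard errors are approximate, the absolute log2 change over the square root of F. Prior count for log2 CPM was 2. DESeq2 1.42.0 and limma 3.58.1 gave alternatives. The procedure was tested on simulated data, drawn without differences shared by libraries of the same number, so that test does not bear on such differences. The smallest p of an exact permutation test of 3 against 3 is 0.1, so single values were not tested that way.

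The comparison, the 25 gene lists and the tests were chosen with earlier results of these data known. Genes named are the sort markers, up to 12 rises and 12 falls past the threshold with at least 5 CPM and no overlap, up to 2 members with the smallest adjusted p of each list where none passed, and 5 interaction genes. Of the 3 genes that passed, 1 is not reported here. Mcm3, Uhrf1, Cenpe, Kif11, Mki67, Cdkn1c, Procr, Hlf, Irf7, Pf4, Rab27b and Car1, and the list members among the promoters, were chosen after their values were seen. Counts cover counting error and do not mark molecules, and counts of a gene with close copies may be shared between them. Positions are those of GENCODE on mm9, and promoters those of RefSeq on GRCm38.p6.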

Additional observations from a re-analysis of the deposited data

How the results depend on the processing

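Against 3 genes past the threshold in Het, the count was 4 with RLE scaling, 11 with no filter on low counts, 7 with at least 1 CPM in 2 libraries, 9 by limma-trend, 84 on the deposited normalized table, 212 by DESeq2, 0 in a fit of the 6 libraries of the comparison alone, 101 down to 0 with a library left out, and 19 without both libraries numbered 1. The filter of 1 CPM and the last setting were added after seeing the data. The 3 genes were shared with every one of these except the fit of 6 libraries (0 shared, adjusted p = 0.905), those without HSC library 2_3 or MPP1 library 1 (0) and those without HSC library 4 or both libraries numbered 1 (2). With replicate number as a block the count was 235, and 503 in the 6 libraries alone, and the 3 genes were shared with both. The labels do not say what a number marks, and over all genes same-numbered libraries did not deviate together (r of -0.0079, 0.018 and -0.018). Over 11036 genes with a mean of at least 5 CPM r was 0.26, 0.22 and 0.092, and every library correlated best with its own number, a hint from the data and not the design. Over 7595 genes with at least 20 CPM r was 0.38, 0.36 and 0.091, and MPP1 library 4 correlated better with HSC library 2_3 (0.11). The cause of these differences in the counts was not tested.

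In Sham, against 1 gene, the count was 5 with RLE scaling, 12 with no filter, 142 with the block, 11 with 1 CPM in 2 libraries, 12 by limma-trend, 27 on the deposited table, 104 by DESeq2, 87 in its libraries alone and 200 with the block there, and 0 to 3 with a library left out, where the lone library is assumed to vary like the others. In KO, against 0, it was 11 by DESeq2 and 152 in its libraries alone with the block, and for Het less KO 23 by DESeq2. DESeq2 gave no adjusted p for 1270 genes in Het.

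Of the genes named, Slamf1 turned from -0.25 to 0.098 without HSC library 2_3 (range -0.42 to 0.098 over the libraries left out). Kel, a late erythroid marker at -0.61, turned to 0.12 by limma-trend, 0.14 in the 6 libraries with the block and 0.67 without both libraries numbered 1, and ran from -1.17 to 1.23 over the libraries left out. Of the other values of single genes under alternatives, 801 kept their direction and side of the threshold, 62 came to pass and 11 no longer passed. The list medians moved by less than the spread between replicates in all but 8 cases. That spread is the SD of the list's mean log2 CPM within the Het groups. It is wide where a single library stands apart, so that a large shift of a median can stay below it.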

Other observations

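The 4 genes given here are outside the lists, passed by DESeq2 and were chosen after their values were seen, so they stand for no group. The mitotic regulator Fam64a had 28.2, 9.60 and 20.4 CPM in MPP1 and 5.60, 3.00 and 5.16 CPM in HSC (log2 change 2.09 ± 0.39, edgeR adjusted p = 0.088, DESeq2 adjusted p = 7.13e-05). The kinetochore-associated gene Knstrn had 88.4, 37.4 and 56.0 CPM in MPP1 and 23.2, 31.3 and 21.9 CPM in HSC (1.25 ± 0.24, edgeR adjusted p = 0.088). The linker histone gene Hist1h1d had 724.8, 359.1 and 423.2 CPM in MPP1 and 265.1, 155.2 and 238.2 CPM in HSC (1.19 ± 0.24, edgeR adjusted p = 0.128). In these genes MPP1 was above HSC in every library. Gbp4, a guanylate-binding protein gene induced by interferon, had 12.7, 28.9 and 20.3 CPM in MPP1 and 60.6, 78.8 and 46.3 CPM in HSC (-1.58 ± 0.34, edgeR adjusted p = 0.138, DESeq2 adjusted p = 0.00326), with MPP1 below HSC in every library, and log2 changes of -0.99 in KO and -0.45 in Sham.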
